A study of Mus musculus with 4 samples.

Results

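Acta2, Tagln, Cnn1, Myl9, Acta1 and Actg2, 6 of the 31053 genes in the count tables, were followed through endothelial and mesenchymal cells of the mouse embryo. The rows were taken by gene symbol, and they had been chosen by measured values of these same libraries: their levels in arterial endothelium and the higher Acta2 there without miR-223. Their levels in arterial cells, and KO against WT in endothelium, are therefore given as a description. KO embryos were mir-223 -/- and WT embryos were age-matched and wild type; both were at embryonic day 10.5, with 2 libraries each. From all of them the aorta-gonad-mesonephros region (AGM), where blood stem cells first arise from the aorta, was taken, and cells carrying CD31 (PECAM1) but not CD45 were sorted as endothelial cells. The labels name no Cre or transgene, do not give the extent of the deletion, and do not say whether embryos were pooled or libraries came from separate litters, so p-values cover only how these 4 libraries varied, and part of that variation may be technical.

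The 6 genes encode parts of the smooth muscle contractile apparatus. Acta2, Actg2 and Acta1 encode the aortic smooth muscle, enteric smooth muscle and skeletal muscle actins, Tagln encodes transgelin (SM22), an actin-binding protein, Cnn1 encodes calponin, which restrains actomyosin, and Myl9 encodes a regulatory light chain of non-sarcomeric myosin. In muscle they are switched on by serum response factor (SRF) with myocardin-family cofactors through CArG boxes, and in the early embryo Acta2 and Tagln are also active for a time in the heart and in cells that join the wall of the dorsal aorta. In arteries Cdh5 (VE-cadherin) marks the endothelium, Gja5 (connexin 40) and the secreted protease Htra1 mark arterial endothelial cells here, and Pdgfrb marks the mural cells and mesenchyme around the vessel.

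The deleted microRNA is shown with its seed, bases 2 to 8, in capitals, because a direct target would be expected to carry the matching letters. It lies at chrX:96242884-96242905 on the plus strand of GRCm38.p6, as RefSeq annotates it.
miR-223-3p: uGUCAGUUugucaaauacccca
The 7 letters that pair with this seed, AACTGAC, occurred in the 3' UTR of 0 of the 6 members, against 9.69% of 21166 genes with an annotated 3' UTR.
The promoters are shown because the members are textbook SRF targets. RefSeq promoter entries matched 4 of the 6, and each was searched on both strands, over the 250 bases before the start, for the CArG box: CC, 6 letters that are all A or T, then GG, with at most 1 of the 6 departing. A strict box occurred in 1.47% of 32851 promoters of this length, and a box with at most 1 departing letter in 8.59%. The boxes are in capitals, with 10 bases on either side, read along the gene's strand (RefSeq, GRCm38.p6).
Acta2 distal box, chr19:34255438-34255467: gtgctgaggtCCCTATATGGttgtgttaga
Acta2 proximal box, chr19:34255388-34255417: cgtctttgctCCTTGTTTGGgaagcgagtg
Myl9 distal box, chr2:156775293-156775322: caagcagaggCCTAATAAGGccgggctggc
Myl9 proximal box, chr2:156775355-156775384: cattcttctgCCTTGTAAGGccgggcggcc
Acta1 distal box, chr8:123894961-123894990: gggatactctCCATATACGGcctggtccgg
Acta1 middle box, chr8:123894910-123894939: ccagtcctctCCTTCTTTGGtcagtgcagg
Acta1 proximal box, chr8:123894829-123894858: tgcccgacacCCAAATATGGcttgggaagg
The Myl9 distal box and the Acta1 proximal box were strict, and the other 5 departed by 1 letter. The Acta2 boxes lay 84 to 75 and 34 to 25 bases before the start. The Cnn1 entry held no match in this window. These are matches of letters, not measured binding.

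The libraries held 6119 and 10299 barcodes (KO) and 3917 and 11186 (WT), with 95158639 to 181682389 UMIs (molecular tags, each marking 1 captured RNA molecule) and 8 to 28 barcodes shared between any pair of libraries. After filters on genes, mitochondrial share and doublets, 19152 cells were kept. Of these, 15709 fell in 15 endothelial-like clusters. Another 1361 were mesenchymal-like, although the sort aimed at endothelium, and they made up 12.8 and 4.28% of KO cells against 14.8 and 3.54% of WT cells, a split that followed the replicate number and not the genotype. Hemogenic endothelial-like cells, which express Runx1, numbered 126 and 77 in KO libraries against 13 and 70 in WT libraries. WT library 1 stood apart in depth, with a median of 24151 UMIs per Gja5-positive cell, against 13316 in WT library 2 and 13904 and 14763.5 in the KO libraries, and results that rest on it are given without it.

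Acta2 was found mainly in 3 kinds of cell. Among 648 cells with at least 1 Acta2 UMI, 318 (49.1%) were endothelial-like and held 24% of all Acta2 UMIs, 120 (18.5%) were hemogenic endothelial-like and held 11.9%, and 179 (27.6%) were mesenchymal-like and held 62.6%. Of all 19152 cells, 15709 were endothelial-like, a larger share than among the Acta2-positive cells, and 1361 (7.11%) were mesenchymal-like. Cdh5 was detected in 487 of the 648 cells, or 75.2%, against 88.8% of 18504 cells without Acta2. Gja5 was detected in 40.9% of the 648 cells, against 11.7% of those without Acta2, Htra1 in 29.8% against 6.84%, and Pdgfrb in 17.1% against 3.26%. Acta2, on chr19:34241090-34255590 (minus strand, GENCODE M21, GRCm38), thus had most of its molecules in mesenchymal-like cells and the largest number of its cells in the endothelium, the class that also held most cells of the sort.

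Within the endothelium Acta2 followed 2 of the 3 arterial-like clusters. Cluster 13, led by Htra1, Pde3a, Nkx2-3 and Krt18, had 87.4 and 192 Acta2 counts scaled to 1e6 UMIs (CPM) in KO libraries 1 and 2, against 102 and 77.8 CPM in WT libraries 1 and 2. Cluster 12, led by Gja5, Slc45a4 and Tmem100, had 87.5 and 25.2 CPM in KO libraries against 20.5 and 16.9 CPM in WT libraries. Cluster 9, led by the tip-cell genes Unc5b, Cxcr4 and Igfbp3, had 1.24 and 0.19 CPM in KO libraries against 0 and 1.37 CPM in WT libraries. KO and WT overlapped in clusters 13 and 9. They did not overlap in cluster 12, where the share of all genes that separate was not counted. In endothelial-like cells with a Gja5 UMI, KO lay above WT without overlap for 10.7% of 11760 genes. With the highest Acta2 cell of each library left out, cluster 13 had 73.5 and 99.6 CPM in KO libraries against 32.7 and 53.8 CPM in WT libraries. Cluster 12 then had 59.4 and 16.7 CPM in KO libraries against 3.85 and 11.5 CPM in WT libraries. These cells were removed by their Acta2 count, and cluster 13 held only 39 cells in WT library 1, against 154 to 237 in the others. The removal therefore cannot show what the overlap rests on. All other endothelial-like clusters together had 1.56 and 0.29 CPM in KO libraries against 0.43 and 0.17 CPM in WT libraries.

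Tagln (chr9:45929619-45936058, minus strand), whose locus overlaps Pcsk7 and Gm48529 on the other strand, had a different order among the arterial clusters. It reached 123 and 75.9 CPM in cluster 12 of KO libraries, against 76.7 and 62.6 CPM in WT libraries. In cluster 13 it had 56.1 and 69.6 CPM in KO libraries against 47.8 and 31.1 CPM in WT libraries. Tagln was thus higher in cluster 12 than in cluster 13 in each of the 4 libraries, while Acta2 was higher in cluster 13 in 3 of 4 and level in KO library 1. Cluster 9 had 2.07 and 10.3 CPM of Tagln in KO libraries against 6.60 and 9.43 CPM in WT libraries.

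Myl9 (chr2:156775420-156781658, plus strand) was also found well outside the cells that held Acta2. It had 94.9 and 171 CPM in cluster 12 of KO libraries against 178 and 129 CPM in WT libraries, and 43.2 and 42.8 CPM in cluster 13 of KO libraries against 37.2 and 17.9 CPM in WT libraries. Cluster 9, where Acta2 was near 0, had 28.1 and 77.4 CPM of Myl9 in KO libraries against 44.0 and 66.5 CPM in WT libraries. In 3 of 4 libraries its highest level was in the megakaryocyte-like class, at 357 and 300 CPM in KO libraries against 89.1 and 341 CPM in WT libraries. In those cells Tagln had 15.5 and 0.77 CPM in KO libraries, against 3.45 and 0 CPM in WT libraries.

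**Figure D1:**
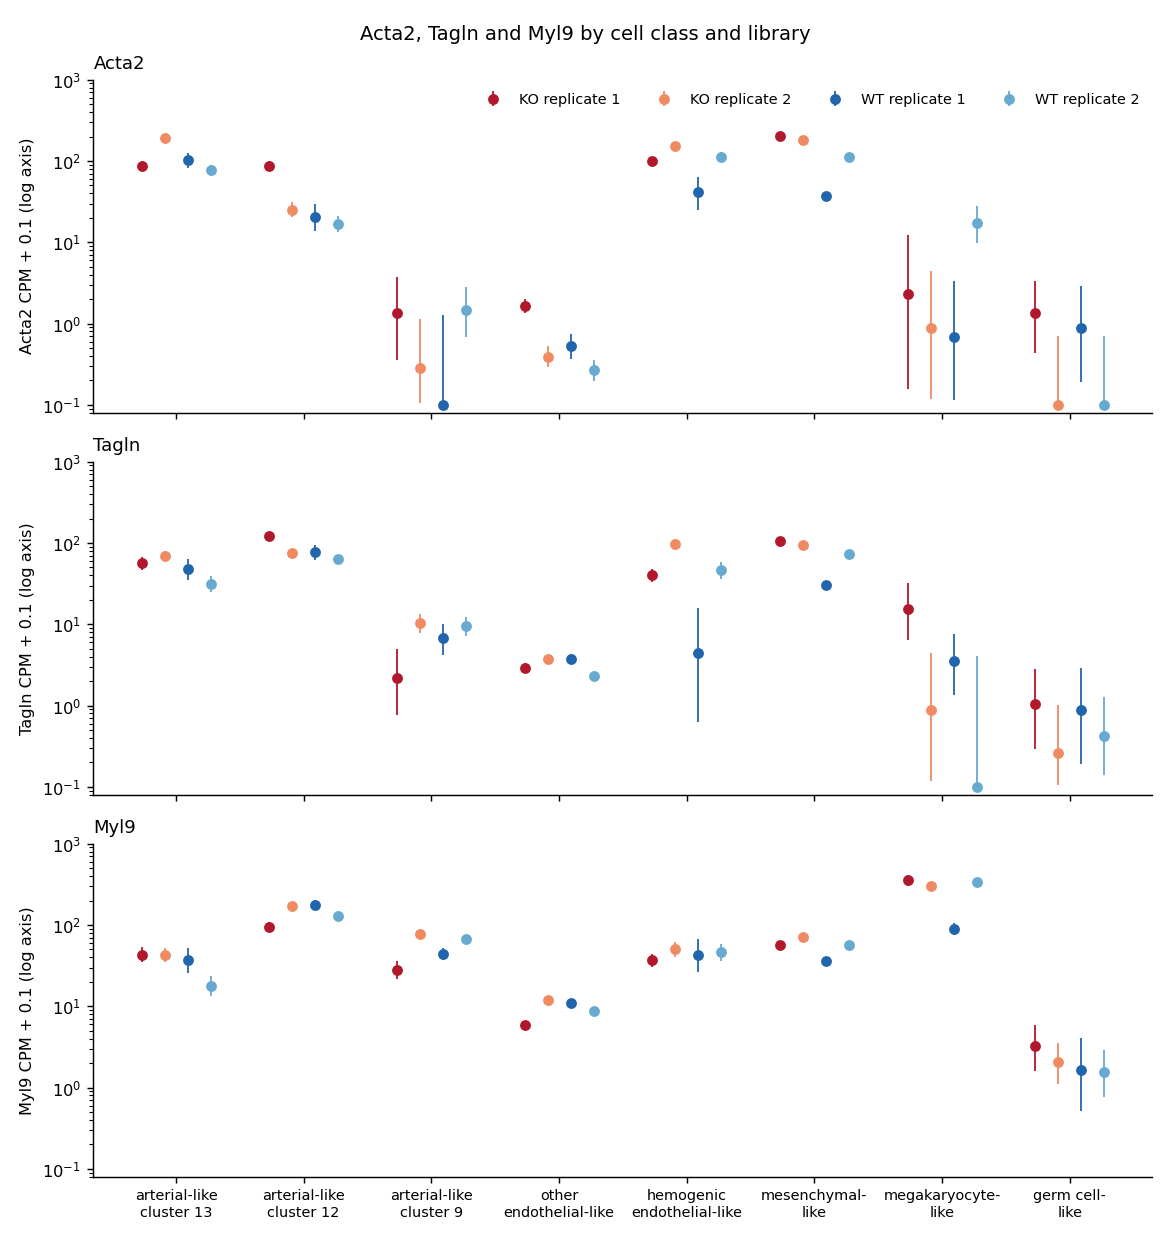
Acta2, Tagln and Myl9 CPM plus 0.1 (log axis) in 8 populations; each point is 1 library, KO left of WT, and bars are exact Poisson 95% intervals, which cover counting error only. Acta2 stood at 16.9 to 192 CPM in arterial-like clusters 12 and 13 and at or under 1.56 CPM in cluster 9 and the other endothelial-like clusters, while Myl9 was present in all of them and, in 3 of 4 libraries, highest in megakaryocyte-like cells.

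The remaining members were close to absent from arterial cells. Among 2195 endothelial-like cells with a Gja5 UMI, Cnn1 (chr9:22099216-22109630, plus strand) had 2 and 1 UMIs in KO libraries and 0 and 0 in WT libraries, where a count of 0 allows up to 0.546 and 0.231 CPM. Acta1 (chr8:123891769-123894751, minus strand, overlapped by Gm20388) had 7 and 14 UMIs in KO libraries against 0 and 4 in WT libraries. Actg2 (chr6:83512905-83536265, minus strand) had 0 and 4 UMIs in KO libraries against 4 and 10 in WT libraries. The coding sequences of Acta2 and Acta1 were 85.4% identical and shared 9 stretches of 25 bases, but their 3' UTRs, nearest to where this kit reads, shared 0. The sources used here do not give how reads common to several actins were counted, so the few Acta1 and Actg2 UMIs are uncertain.

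Selecting endothelial-like cells by a Gja5 UMI, in place of clusters, gave 435 and 706 KO cells and 187 and 867 WT cells. Acta2 in these cells was 52.5 and 51.8 CPM in KO libraries (366 and 596 UMIs), against 23.5 and 21.7 CPM in WT libraries (129 and 282 UMIs). Gja5-negative endothelial-like cells had 1.62 and 0.30 CPM in KO libraries against 0.32 and 0.25 CPM in WT libraries. The log2 difference of Gja5-positive over Gja5-negative cells was 3.62 ± 0.18 (SE) for Tagln and 2.68 ± 0.07 for Myl9. For Acta2 it is given only with the processing alternatives, because its Gja5-negative level lay near that of germ cell-like cells, given further on. Tagln was at 54.6 and 46.4 CPM in Gja5-positive KO cells against 29.3 and 32.1 CPM in Gja5-positive WT cells, and at 2.29 to 3.72 CPM in Gja5-negative cells of the 4 libraries. For Myl9 the Gja5-positive values were 49.9 and 90.8 CPM in KO libraries against 63.7 and 71.2 CPM in WT libraries, and the Gja5-negative values were 6.03 to 13.2 CPM. Each of these genes was higher in Gja5-positive than in Gja5-negative cells in all 4 libraries, as were 41.2% of 13232 genes tested.

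Few cells carried most of the arterial Acta2. A UMI of Acta2 was found in 65 of 435 and 67 of 706 Gja5-positive KO cells, against 14 of 187 and 63 of 867 Gja5-positive WT cells; 31 and 31 KO cells and 6 and 35 WT cells had a single UMI. Cells with 10 or more Acta2 UMIs numbered 8 and 12 in KO libraries and 3 and 6 in WT libraries, and held 65.0 and 78.5% of the gate's Acta2 UMIs in KO libraries against 80.6 and 59.9% in WT libraries. Without those cells Acta2 was 18.6 and 11.3 CPM in KO libraries against 4.63 and 8.78 CPM in WT libraries. The genotypes still did not overlap, but in the whole gate 10.7% of 11760 genes also had KO above WT without overlap. The cells were removed by their Acta2 count. The highest single cell held 62 and 244 UMIs in KO libraries and 66 and 64 in WT libraries, or 16.9 and 40.9% against 51.2 and 22.7% of the gate's Acta2 UMIs. With that 1 cell removed from each library, Acta2 was 43.7 and 30.6 CPM in KO libraries against 11.5 and 16.8 CPM in WT libraries.

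The 29 cells with 10 or more Acta2 UMIs all carried endothelial cadherin and lay in the arterial-like clusters. Of the 29, 18 were in cluster 13, 11 in cluster 12 and 0 in other clusters. The cells had a median of 13 and a lowest count of 6 Cdh5 UMIs; 21 carried Htra1, 26 carried Tagln and 1 carried Pdgfrb. Their doublet score, the share of simulated doublets among a cell's neighbours, had a median of 0.5 and a highest value of 0.847, that of the KO library 1 cell with 62 Acta2 UMIs. Their median count of a list of 16 mesenchymal genes was 3 UMIs. The 4 highest cells, 1 per library, had 13 and 18 Cdh5 UMIs in KO libraries and 58 and 7 in WT libraries, with 0 Pdgfrb UMIs in any of the 4.

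**Figure D2:**
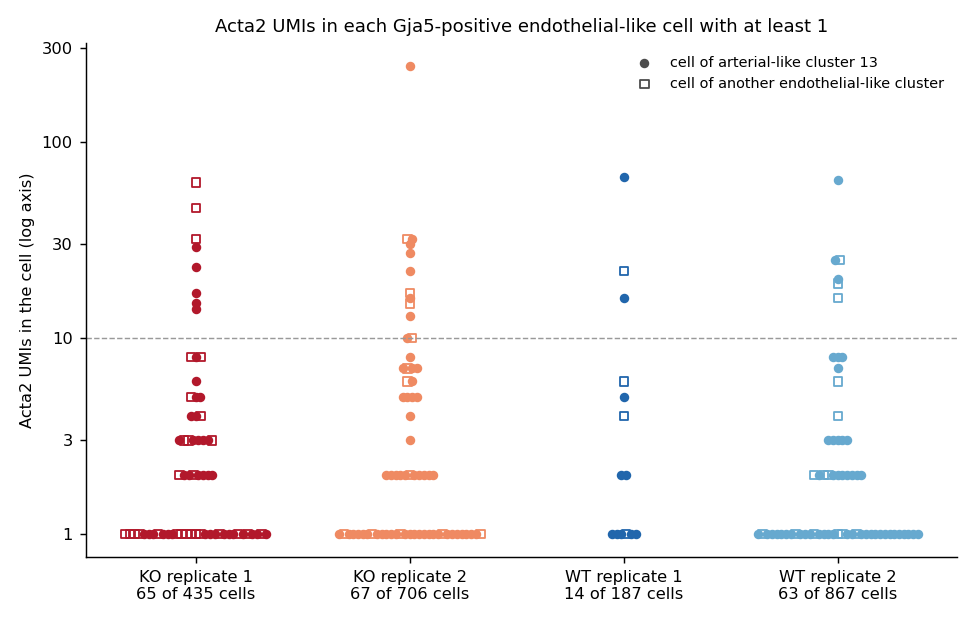
Acta2 UMIs per cell in Gja5-positive endothelial-like cells with at least 1 Acta2 UMI (log axis), by library, KO left of WT; filled circles are cells of cluster 13, open squares cells of other endothelial-like clusters, and the dashed line marks 10 UMIs. Of the 209 cells, 103 lie at 1 UMI, and the 29 cells at or above the line, of which 8 and 12 are KO and 3 and 6 are WT, reach 244 UMIs.

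Acta2-positive and Acta2-negative cells within the Gja5 gate were compared for the other markers, 209 cells against 1986. Cdh5 was detected in 100% of Acta2-positive and 99.9% of Acta2-negative cells. Htra1 was detected in 64.6 and 79.1% of Acta2-positive KO cells and 78.6 and 69.8% of Acta2-positive WT cells, and in 34.1 and 27.2% of Acta2-negative KO cells and 31.8 and 28.5% of Acta2-negative WT cells. The Htra1 share was thus higher in the Acta2-positive cells in 4 of 4 libraries, without overlap. Tagln was detected in 44.6 and 40.3% of Acta2-positive KO cells and 57.1 and 36.5% of Acta2-positive WT cells, against 13 and 16.1% of Acta2-negative KO cells and 17.9 and 13.9% of Acta2-negative WT cells. Among cells with at least 2 Acta2 UMIs the Tagln share was 59.4%. Myl9 shares lay closer together, at 51.2% of Acta2-positive and 38.0% of Acta2-negative cells over the 4 libraries. Cnn1 was found in 2 Acta2-positive and 1 Acta2-negative cells, Acta1 in 3 and 9, and Actg2 in 6 and 9.

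Of the markers of the vessel's surroundings, some were rare in the Acta2-positive arterial cells and others were not. Pdgfrb was found in 1 Acta2-positive cell (0.5%) and 7 Acta2-negative cells (0.4%), Pdgfra, the receptor of fibroblastic mesenchyme, in 5 (2.4%) and 39 (2.0%), and Col1a1, the main collagen I chain of mesenchyme, in 4 and 6. Col1a2, the other collagen I chain, was found in 36 Acta2-positive cells (17.2%) and 64 Acta2-negative cells (3.2%), and Col3a1, a fibrillar collagen chain, in 27 (12.9%) and 86 (4.33%). Col3a1 had 9.94 CPM in Acta2-positive and 3.39 CPM in Acta2-negative cells, the mesodermal transcription factors Twist1 8.13 and 3.39 CPM and Meox1 4.52 and 1.93 CPM, and the Notch-family ligand Dlk1 9.34 and 4.64 CPM. Of the 16 mesenchymal genes, 14 had a higher CPM in Acta2-positive than in Acta2-negative Gja5-positive cells. How many of all genes did so on this pooled measure was not counted. Of the 14, Pdgfrb, Dcn, Lum and Mfap4 had only 1 UMI each in the Acta2-positive cells, and Postn and Tcf21 were at 0 there. Mfap2, a microfibril protein with 523 UMIs, made up most of the list there, with 158 CPM in Acta2-positive cells, 104 CPM in Acta2-negative cells and 193 CPM in mesenchymal-like cells. The whole list came to 213 CPM in Acta2-positive and 127 CPM in Acta2-negative cells. Its part in the Acta2 values was not tested beyond the removal of cells, given next.

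**Figure D3:**
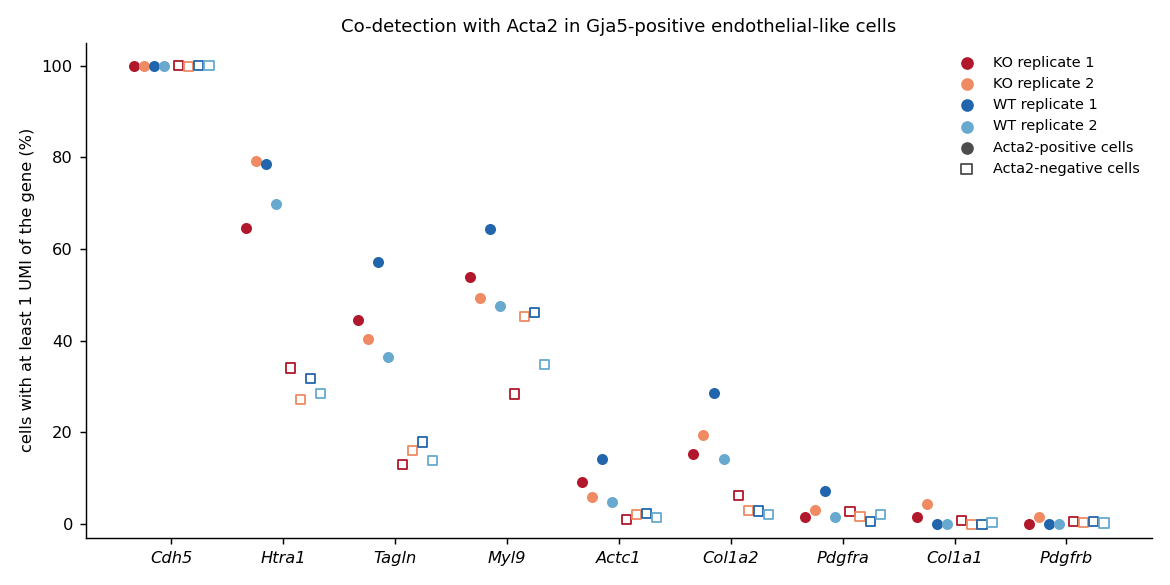
Share of cells (percent) with a UMI of 9 genes among Gja5-positive endothelial-like cells, with (filled) and without (open) an Acta2 UMI, each point 1 library, KO left of WT. Cdh5 is near 100% in both, Htra1 and Tagln are higher in Acta2-positive cells in 4 of 4 libraries, Col1a2 is found in 17.2 against 3.2% of cells, and Pdgfrb and Col1a1 are near 0 in both.

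Signs of mixed cells and of free RNA were measured beside Acta2. Leaving out Gja5-positive cells with a Pdgfra, Pdgfrb or Col1a1 UMI left Acta2 at 53.6 and 44.3 CPM in KO libraries against 23.4 and 22.1 CPM in WT libraries. The whole gate had 52.5 and 51.8 CPM in KO libraries against 23.5 and 21.7 CPM in WT libraries. KO library 2 fell most, although 687 of its 706 cells stayed. The cells left out there thus held more Acta2 for their UMIs than the rest. Called doublets in the same gate had Acta2 in 22.6 and 10.5% of KO barcodes and 25 and 6.06% of WT barcodes, at a median of 31966.5 UMIs, against 14453 UMIs in kept cells. Their Acta2 level was 128 and 5.87 CPM in KO libraries against 10.1 and 17.7 CPM in WT libraries, and 29.7 CPM over all 4, against 37.2 CPM in kept cells; KO library 1 was the 1 library whose doublets exceeded its kept cells. Acta2-positive cells had a median doublet score of 0.444, against 0.514 in Acta2-negative cells, and a median of 13151 UMIs against 14630.5 UMIs. In germ cell-like cells, where Acta2 should be absent, 4 of 89 and 0 of 148 KO cells and 2 of 44 and 0 of 147 WT cells had a UMI, or 1.25 and 0 CPM in KO libraries against 0.77 and 0 CPM in WT libraries, although these cells were deeper. After thinning each cell to 5000 UMIs the germ cell-like share was 1.15 and 0% in KO libraries and 2.27 and 0% in WT libraries, while the Gja5-positive share was 9.07 and 4.77% in KO libraries against 4.84 and 4.09% in WT libraries. Gja5-positive cells thus stood above the germ cell-like share in all 4 libraries, although the WT library 1 share is 1 of 44 cells. Other classes were not all as low. Epithelial-like cells of KO library 1 held 28 Acta2 UMIs in 3 of 25 cells. Megakaryocyte-like cells of WT library 2 held 16 in 2 of 24, and neural-like cells of WT library 1 held 17 in 2 of 48. In the other libraries these classes held at most 4 UMIs each. Gja5-negative endothelial-like cells, at 0.275 and 0.0939% in KO libraries and 0.0657 and 0.138% in WT libraries, were at or near the germ cell-like share. In KO library 1, however, 40 endothelial-like cells held at least 2 Acta2 UMIs, and 34 of them were Gja5-positive. How much of the Acta2 in Gja5-negative cells is free RNA was not tested.

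The ratio of Acta2 to mesenchymal RNA also differed between the classes. Per 100 UMIs of the mesenchymal list, Gja5-positive cells held 42.2 and 38.9 Acta2 UMIs in KO libraries against 15.5 and 16.3 in WT libraries. Gja5-negative endothelial-like cells held 3.1 and 0.57 in KO libraries against 0.53 and 0.49 in WT libraries, and mesenchymal-like cells held 7.06 and 8.05 in KO libraries against 1.46 and 5.43 in WT libraries. The arterial ratio was above the pooled mesenchymal ratio in each library. That pool holds 1182 cells without an Acta2 UMI beside 179 with one, and the ratio in the latter alone is not given here. The list itself came to 124 and 133 CPM in Gja5-positive KO cells against 151 and 133 CPM in Gja5-positive WT cells, so KO did not exceed WT in it. Embryonic globin RNA, a sign of RNA from lysed red cells, came to 162 and 59 CPM in these KO cells against 276 and 84 CPM in these WT cells.

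**Figure D4:**
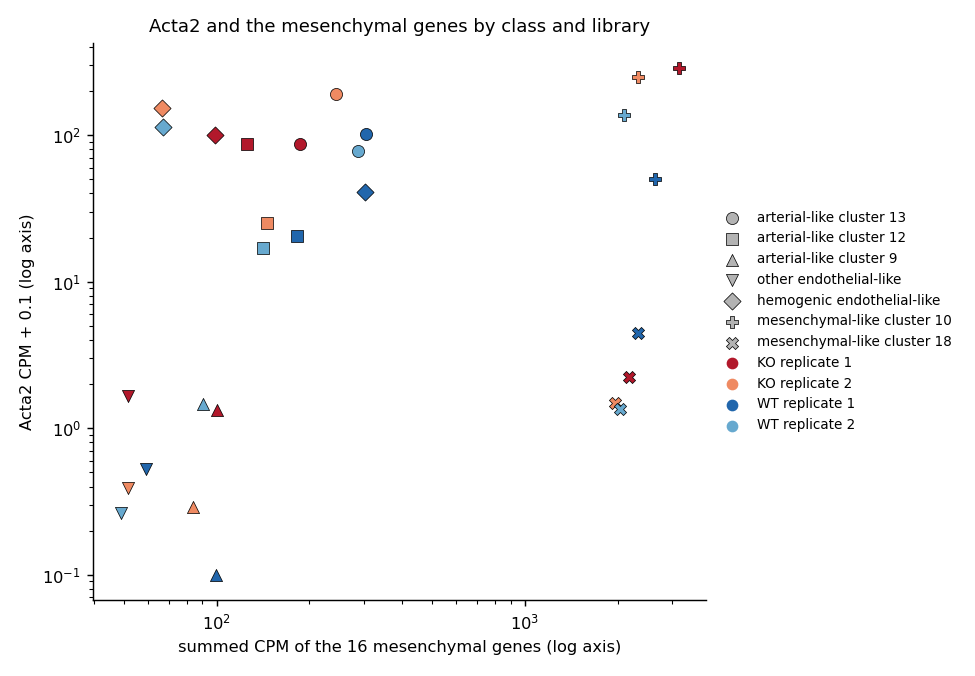
Acta2 CPM plus 0.1 against the summed CPM of 16 mesenchymal genes (both log axes), each point 1 class in 1 library. The classes drawn are arterial-like clusters 13, 12 and 9, other endothelial-like, hemogenic endothelial-like, and mesenchymal-like clusters 10 and 18. Acta2 lay at 16.9 to 192 CPM in clusters 12 and 13. Gja5-positive endothelial-like cells are not drawn and had 21.7 to 52.5 CPM of Acta2 at 124 to 151 CPM of the list. Mesenchymal-like cells as a whole, also not drawn, had 2087 to 2867 CPM of the list.

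What else distinguished Acta2-positive arterial cells was tested with edgeR's quasi-likelihood test on sums per library, with library as a block and Acta2 itself left out. Of 10226 genes, 14.7% passed an adjusted p of 0.05, 7.4% higher and 7.28% lower in Acta2-positive cells. Among the members only Tagln and Myl9 passed the filter on low counts. Since arterial levels chose the members, their values in this split are a description with no test. Tagln stood at 240 and 203 CPM in Acta2-positive KO cells and 37.0 and 108 CPM in Acta2-positive WT cells, against 23.8 and 31.1 CPM in Acta2-negative KO cells and 28.7 and 26.7 CPM in Acta2-negative WT cells. It was higher in 4 of 4 libraries, as were 19.1% of genes, by 2.38 ± 0.49 on the log2 scale. The step was smallest in WT library 1, which has 14 Acta2-positive cells. Without that library the difference was 2.66, and with DESeq2 it was 2.11. Myl9 differed by 0.62 ± 0.23, and by 0.88 with at least 2 Acta2 UMIs per positive cell. Htra1 rose to 104 and 210 CPM in Acta2-positive KO cells and 222 and 196 CPM in Acta2-positive WT cells, against 65.6 and 58.0 CPM in Acta2-negative KO cells and 55.5 and 61.2 CPM in Acta2-negative WT cells. The difference, 1.52 ± 0.24 (adjusted p = 0.0158), was as large but narrowly missed the threshold when cells with a Pdgfra, Pdgfrb or Col1a1 UMI were left out (1.52, adjusted p = 0.0537) or doublets were kept (1.46, adjusted p = 0.0557). Gja5 (0.85 ± 0.11, adjusted p = 0.000477) and Cdh5 (0.34 ± 0.07, adjusted p = 0.00759) were also higher in Acta2-positive cells, though Cdh5 was at 0.33 (adjusted p = 0.0605) against negative cells of matched depth and at 0.10 (adjusted p = 0.641) after thinning.

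Arterial and endothelial genes were among those higher in Acta2-positive cells, and the cytoplasmic actin genes were lower; values in parentheses are log2 differences, Acta2-positive over Acta2-negative. Of 18 arterial genes tested, 9 were higher and 2 lower (median 0.35, against 0.00 over all genes), including the Notch ligand Jag1 (1.10), the kinase Bmx (1.20) and Tmem100 (1.08), while Igfbp3, a leading gene of cluster 9, was lower (-1.13). Of 12 pan-endothelial genes, 6 were higher and 0 lower, among them the receptor Tie1 (0.48) and the tight-junction gene Cldn5 (0.34). Of 20 genes of TGF-beta signalling and endothelial-to-mesenchymal change, 9 were higher and 3 lower (median 0.18), with the repressor Zeb2 at 0.78, Id2 at 0.64 and the co-receptor Eng at 0.34. Of 15 other contractile genes tested, 5 were higher and 2 lower (median 0.13), the LIM protein Csrp2 (0.34) and caldesmon Cald1 (0.27) on one side and smoothelin Smtn (-0.83) and Myl6 (-0.21) on the other. Of 17 SRF and MRTF genes, 2 were higher and 5 lower (median -0.17), and the lower ones included the cytoplasmic actins Actb (-0.38) and Actg1 (-0.49), Cnn2 (-0.58) and Tagln2 (-0.30). The cardiac actin Actc1, co-expressed with Acta2 in early muscle, was higher by 3.28 ± 0.43 (adjusted p = 6.11e-05), with a UMI in 7.2% of Acta2-positive and 1.7% of Acta2-negative cells. Many of these steps also appeared in Htra1-positive over Htra1-negative cells of the gate. There Jag1 (1.79), Bmx (2.08), Tie1 (0.52), Cldn5 (0.32), Csrp2 (0.32) and Cald1 (0.72) were higher. Actg1 (-0.60), Cnn2 (-0.80), Tagln2 (-0.45) and Myl6 (-0.48) were lower, while Myl9 (-0.80) went opposite ways in the splits. These steps are thus not particular to Acta2-positive cells, and the part of Htra1 in them was not tested.

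Across all genes, the 10 with the lowest adjusted p in each direction, among those that moved alike in 4 of 4 libraries, were as follows. Higher, by these log2 differences, were Procr (1.30), the protein C receptor of arterial and hemogenic endothelium, with a UMI in 80.9% of Acta2-positive and 53.5% of Acta2-negative cells; the matrix genes Col5a2 (1.12), Fbn2 (1.13) and Timp2 (1.43); Ifitm1 (2.09) and Ifitm3 (1.08), interferon-inducible membrane proteins; the transcription factor Foxc2 (1.42); and Tmem176a (1.20), Slco3a1 (1.02) and the protease Ctsl (0.68). Lower were glutamine synthetase Glul (-1.90), the tubulins Tubb6 (-1.47) and Tubb2a (-1.28), Arhgap18 (-1.77), the tropomyosin Tpm4 (-0.65), the glycolytic genes Ldha (-0.76) and Gapdh (-0.54), and Mif (-0.86), Pkig (-0.85) and Ppp1r2 (-0.95). Of 4 mesenchymal genes that passed the filter, 2 were higher, Col1a2 (2.60) and Col3a1 (1.51), and of 4 pericyte genes Anpep (1.86) was higher and Abcc9 (-2.31) lower. The epithelial keratin Krt18, a leading gene of cluster 13, was higher by 1.88. Of 5 globins, 0 were called with edgeR and 1 had an unadjusted p under 0.05, and of 15 dissociation genes Hspa1b (0.59) and Fosb (0.96) were higher. The count of 1501 called genes fell to 170 when each cell was thinned to 5000 UMIs. It ranged from 592 to 1407 with 1 library left out, with the lowest count without KO library 2. In Htra1-positive over Htra1-negative cells of the gate, Krt18 (3.88), Ifitm3 (1.47), Col1a2 (2.61), Col3a1 (2.18) and Anpep (2.66) were also higher and Abcc9 (-2.47) lower.

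**Figure D5:**
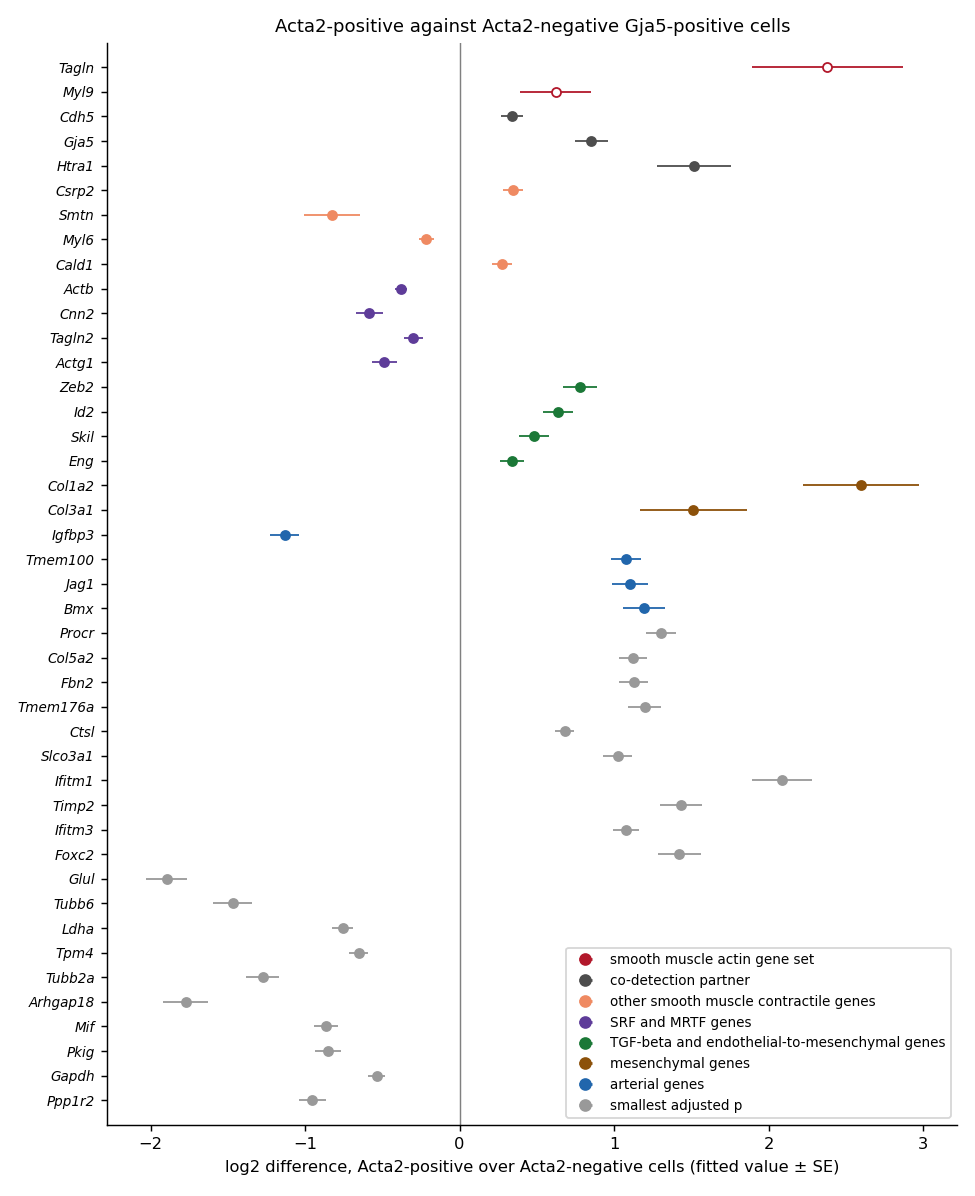
Log2 difference, Acta2-positive over Acta2-negative Gja5-positive endothelial-like cells, for named genes; points are fitted values, bars SE, over 4 libraries, filled where the adjusted p (edgeR quasi-likelihood) is under 0.05. Col1a2, Htra1 and Procr lie to the right, and Glul, Smtn and the cytoplasmic actins to the left. Tagln (2.38) and Myl9 (0.62) are open and are given as a description.

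Htra1 split the arterial cells differently for each member; since arterial levels chose the members, their values in this split are a description with no test. Among Gja5-positive cells, 38.6 and 32.2% of KO cells and 35.3 and 31.5% of WT cells carried Htra1. Acta2 was at 67 and 173 CPM in Htra1-positive KO cells and 67.6 and 58.3 CPM in Htra1-positive WT cells, against 44.8 and 4.47 CPM in Htra1-negative KO cells and 2.94 and 8.94 CPM in Htra1-negative WT cells. It was higher in Htra1-positive cells in 4 of 4 libraries, as were 33.6% of genes tested, by 2.73 ± 0.96 on the log2 scale, with uneven steps. Without KO library 1, where the step was smallest, the difference was 3.95. Tagln was at 54.6 and 80.0 CPM in Htra1-positive KO cells and 38.4 and 45.5 CPM in Htra1-positive WT cells, against 54.6 and 33.3 CPM in Htra1-negative KO cells and 25.1 and 27.5 CPM in Htra1-negative WT cells. Its difference was 0.62 ± 0.24, and turned to -0.29 after thinning.

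Myl9 went the other way. It was at 42.2 and 62.9 CPM in Htra1-positive KO cells and 50.4 and 37.5 CPM in Htra1-positive WT cells, against 54.0 and 102 CPM in Htra1-negative KO cells and 69.9 and 83.0 CPM in Htra1-negative WT cells. It was lower in Htra1-positive cells in 4 of 4 libraries, as were 20.1% of genes tested, by -0.80 ± 0.10 on the log2 scale. Over the whole table, edgeR called 43.6% of 10487 genes, 21.3% higher and 22.3% lower. Of 17 SRF and MRTF genes, 11 were lower and 3 higher in Htra1-positive cells (median log2 difference -0.24, against 0.02 over all genes), and of 15 other contractile genes 7 were lower and 3 higher. Arterial genes were higher in 11 of 17 and lower in 3. Krt18 (3.88), Bmx (2.08), Jag1 (1.79) and the mural receptor Notch3 (1.49) were among those higher.

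KO and WT endothelium are set side by side as a description, since this difference led to the choice of genes. Over all endothelial-like cells Acta2 was 7.03 and 5.97 CPM in KO libraries against 2.47 and 2.53 CPM in WT libraries, a log2 difference of 1.39 ± 0.19. KO lay above WT without overlap there for 7.46% of 14640 genes, and edgeR called 0.13% of them. In Gja5-positive cells the Acta2 difference was 1.21 ± 0.16, on means of 52.1 ± 0.505 CPM in KO libraries and 22.6 ± 1.25 CPM in WT libraries (SD, n = 2 each). These small SDs depend on few cells, as 1 cell held 40.9% of the Acta2 UMIs of KO library 2. Without the highest cell of each library Acta2 was 43.7 and 30.6 CPM in KO libraries against 11.5 and 16.8 CPM in WT libraries. Tagln differed by 0.54 ± 0.16 over endothelium and 0.71 ± 0.16 in Gja5-positive cells, and Myl9 by -0.01 ± 0.28 and 0.07 ± 0.25. Both KO libraries lay above both WT libraries for Acta2 and Tagln in Gja5-positive cells, a separation that 10.7% of the 11760 genes tested there also had. The gate itself differed less between the genotypes, with Cdh5 at -0.11, Gja5 at 0.15 and Htra1 at 0.04 on the log2 scale. Of 15 other contractile, 17 SRF and MRTF and 21 TGF-beta genes tested there, 0 were called with edgeR, which called 0.034% of all genes; 0, 0 and 1 of them had an unadjusted p under 0.05.

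The share of cells and the level gave different pictures of KO against WT. The thinned Gja5-positive share with Acta2, 9.07 and 4.77% in KO libraries and 4.84 and 4.09% in WT libraries, overlapped, because KO library 2 had a share close to WT library 1. The thinned Tagln share was 11.4 and 10.7% in KO libraries against 5.91 and 10.1% in WT libraries and did not overlap. Without thinning it was 17.7 and 18.4% in KO libraries against 20.9 and 15.6% in WT libraries and did overlap. How many other genes separate in their share of cells was not counted. Within Gja5-positive cells the Acta2 level overlapped between KO and WT in the Htra1-positive cells and in the Htra1-negative cells taken alone, with KO library 1 high in the Htra1-negative cells and KO library 2 high in the Htra1-positive cells. Without the highest Acta2 cell of each library the level in Htra1-positive cells was 55.4 and 98.4 CPM in KO libraries against 30.2 and 39.4 CPM in WT libraries. In Htra1-negative cells it was 31.3 and 2.66 CPM in KO libraries against 1.35 and 6.35 CPM in WT libraries and still overlapped. The cells were removed by their Acta2 count, so these values cannot show what the overlap rests on. Over all Gja5-positive cells, with only the 1 highest Acta2 cell of the whole gate left out per library, the log2 difference was 1.34. Cluster 13, the cluster with the most Acta2-positive cells, made up 34.9 and 28.5% of the Gja5-positive KO cells and 20.9 and 26.2% of the Gja5-positive WT cells. Its part in the difference was not tested, but in cluster 13 alone the log2 difference of Acta2 was 0.70 and in cells with both Gja5 and Htra1 it was 0.97.

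Hemogenic endothelial-like cells had the highest share of Acta2-positive cells. It was 40.5 and 44.2% in KO libraries against 38.5 and 42.9% in WT libraries, and 19.1 and 28.6% against 23.1 and 22.9% after thinning. The level was 101 and 154 CPM in KO libraries against 41.0 and 113 CPM in WT libraries, overlapping, with only 13 cells in WT library 1. Tagln in the same cells was 40.02 and 97.5 CPM in KO libraries against 4.32 and 46.5 CPM in WT libraries, and Myl9 36.6 and 50.2 CPM against 43.2 and 45.8 CPM. Of Acta2-positive Gja5-positive cells outside this class, 8.6% carried Runx1, against 2.4% of Acta2-negative cells.

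Mesenchymal-like cells were a separate population for the members, and the comparison of KO with WT there could be tested. Acta2 lay in 1 of their 2 clusters. Cluster 10, led by Ptn, Col1a1 and Prrx1, had 287 and 250 CPM in KO libraries against 50.1 and 137 CPM in WT libraries, while cluster 18, led by the sclerotome genes Foxd1 and Pax1, had 2.14 and 1.39 CPM against 4.38 and 1.25 CPM. Over both, Acta2 was 202 and 180 CPM in KO libraries against 37.4 and 113 CPM in WT libraries. As in the endothelium a few cells decided the level, with the 5 highest cells holding 41 and 84% of the Acta2 UMIs in KO libraries and 56 and 83% in WT libraries, and a highest cell of 339 and 456 UMIs in KO libraries against 63 and 274 in WT libraries.

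The difference of Acta2 in mesenchyme, 1.40 ± 0.65 on the log2 scale, did not pass the test (unadjusted p = 0.115, adjusted p = 0.99995, edgeR). Tagln was 104.9 and 95.0 CPM in KO libraries against 30.004 and 73.1 CPM in WT libraries and differed by 1.02 ± 0.45, Myl9 was 57.4 and 70.6 CPM against 36.3 and 56.2 CPM and differed by 0.51 ± 0.22, Cnn1 differed by 1.13 ± 0.86 and Actg2 by 1.42 ± 1.11. Of the 5 members that passed the filter 0 were called with edgeR and 0 with DESeq2, while 1 (Myl9) had an unadjusted p under 0.05 with either tool, in a comparison that called 0.00828% of 12081 genes. Both KO libraries lay above both WT libraries for Acta2, Tagln and Myl9, as for 9.03% of all genes tested. WT library 1 was the low library for each of the 5. Without it Acta2 differed by 0.76 (adjusted p = 0.0286), and without WT library 2 by 2.40 (adjusted p = 2.47e-23), so the size rests on which WT library is used. Without WT library 2 the other 4 passed as well, Tagln at 1.79, Myl9 at 0.86, Cnn1 at 3.20 and Actg2 at 3.91 (adjusted p = 3.58e-12, 0.0315, 0.000628 and 8.27e-10), with WT library 1 alone on the WT side and assumed to vary like the KO libraries; without WT library 1 they differed by 0.46, 0.19, 0.02 and 0.24 and did not pass. The thinned share of mesenchymal-like cells with Acta2 was 13.1 and 5.33% in KO libraries against 7.04 and 5.56% in WT libraries (exact permutation p = 1, two-sided), and with Tagln 13.1 and 12.7% against 4.99 and 7.26% (exact permutation p = 0.333, the smallest that 2 against 2 libraries allow). Pdgfrb was 32.7 and 40.4 CPM in KO mesenchyme against 38.1 and 33.4 CPM in WT mesenchyme, a difference of 0.05.

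Cnn1 and Actg2, near absent from arterial cells, were found in mesenchymal cluster 10 and not in cluster 18. In mesenchymal-like cells Cnn1 had 62 and 27 UMIs in KO libraries against 6 and 25 in WT libraries, or 5.65 and 5.32 CPM against 0.608 and 5.49 CPM, and Actg2 was 10.8 and 6.90 CPM against 0.608 and 7.69 CPM. Both had 0 UMIs in cluster 18. KO and WT overlapped for both genes. Acta1 was also low there, at 0.365 and 0.789 CPM in KO libraries against 0.811 and 0.878 CPM in WT libraries. Actc1 was 42.0 and 43.8 CPM in KO mesenchyme against 10.9 and 39.7 CPM in WT mesenchyme, but in Gja5-positive cells 4.30 and 3.21 CPM in KO libraries against 3.28 and 2.23 CPM in WT libraries.

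Across 94 sums of 1 cluster in 1 library (26 clusters, at least 20 cells each), the 5 genes whose log2(CPM + 1) followed Acta2 most closely, of 7852 with a mean of at least 10 CPM, were Tagln (Pearson r = 0.80), Pde3a (0.80), Ltbp1 (0.78), Krt18 (0.78) and Ikzf2 (0.76). Htra1 (0.55), Gja5 (0.55) and Myl9 (0.50) ranked 78, 89 and 157, and Cdh5 (-0.06) did not follow it. Cnn1 (0.66), Actg2 (0.59), Acta1 (0.39) and Pdgfrb (0.34) were below the level minimum. Sums of 1 library share its depth and preparation, and clusters were formed on the same genes, so these values describe likeness only.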

How the data were processed

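The 10x Genomics 3' kit (v3 chemistry) was used for 2 KO and 2 WT libraries. The deposited files hold UMI counts of each gene in each barcode, not normalized, and were written by Cell Ranger 3.1.0, per the file headers. The submitters' processing notes also name Seurat 4. The sources used here do not give the alignment settings, the genome build or the annotation.

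Barcodes were kept as cells at 1000 or more genes and less than 10% mitochondrial UMIs, and doublets were called at 0.8% per 1000 barcodes from 2 simulated doublets per cell. Clusters (2000 variable genes, 40 components, 20 neighbours, Leiden resolution 1.5; leidenalg 0.10.2) were named from fixed markers, and 2 of 26 stayed unnamed. Members, lists and markers were chosen with earlier results of these data known. Named genes are the members, 4 partner genes, up to 4 called genes per list, and the 10 with the lowest adjusted p in each direction that moved the same way in 4 of 4 libraries.

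UMIs were added up within each library and class, and edgeR 4.0.16 (quasi-likelihood, TMM, filterByExpr, Benjamini-Hochberg at 0.05) was run on these sums in R 4.3.3; an SE is the log2 difference divided by the root of the F statistic. DESeq2 1.42.0, other filters, thinning to 5000 UMIs, left-out libraries and a replicate block were alternatives. The tests were checked on simulated counts. Intervals and floors (3 counts) cover counting error only, and levels are compared between cells, not between genes.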

Additional observations from a re-analysis of the deposited data

Results flagged for a closer look

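Acta2 was also present in barcodes that the cell filters left out, which no comparison above uses. It was at 32.11 and 9.983 CPM in 1762 and 3851 such barcodes of KO libraries 1 and 2, against 4.9978 and 3.7197 CPM in 1536 and 3536 such barcodes of WT libraries 1 and 2, where 3 UMIs would correspond to at most 0.294 CPM. KO exceeded WT in these barcodes as well, and the share of all genes that do so was not counted. They failed the gene or mitochondrial filter, called doublets are not among them, and what they hold was not tested.

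Acta1 was flagged because both KO libraries were below both WT libraries in mesenchymal-like cells, with a log2 ratio of means of -0.5507. Both were above WT in Gja5-positive endothelial-like cells. It failed the filter on low counts in both comparisons, and the share of all genes with KO below WT is not given here. Mesenchymal-like cells held 4 and 4 Acta1 UMIs in KO libraries against 8 and 4 in WT libraries. In Gja5-positive KO cells, 6 of 7 and 7 of 14 UMIs came from 1 cell each. The difference between the effects in these cell classes was not tested and rests on few UMIs.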

How the results depend on the processing

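In KO against WT, calls in endothelial-like cells (19) became 42 with DESeq2, 82 with no filter and 23 to 91 with 1 library left out. In Gja5-positive cells (4) they became 9 with DESeq2, 1 in cluster 13 alone, 33 with no filter and 5 to 30. In mesenchymal-like cells (1) they became 10 with DESeq2, 0 in cluster 10 alone or with doublets kept (edgeR; 322 and 199 genes at an unadjusted p under 0.05), 46 with no filter and 23 to 58. Acta2 in Gja5-positive cells (1.21) was 0.97 with Htra1 UMIs too, 0.70 in cluster 13 and 1.39 with doublets kept; in mesenchyme (1.40) it was 0.76 to 2.40. Acta2 in Gja5-positive over Gja5-negative cells (6.0, over a Gja5-negative level near that of germ cell-like cells) was 5.26 with doublets kept, 4.40 after thinning and 5.55 to 6.73. For the Htra1 split, calls (4572) became 2748 with DESeq2 and 1386 after thinning; Acta2 (2.73) was 3.23 with DESeq2 and 1.84 to 3.95, and Tagln (0.62) turned to -0.29 after thinning. For the Acta2 split, calls (1501) became 823 with DESeq2, 946 with matched negative cells, 170 after thinning and 592 to 1407. Thinning tests fewer genes; the other causes were not tested. Over all settings, 75 main values stayed the same, 34 moved and 4 passed the threshold anew. Of the single-gene values, 203 stayed the same, 18 passed the threshold anew, 7 lost it, 17 moved, untested, and 1 reversed. For call counts, same means within a fixed fold of the main count. For described values it means within the SE or spread, and for tested ones the same direction and side of the threshold. The settings for single clusters, for Gja5 with Htra1, for at least 2 Acta2 UMIs, for the highest Acta2 cell left out and for cells of 10 or more Acta2 UMIs were chosen after seeing the data.

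Replicate numbers were not shown to pair the libraries (2 pairs; correlations of 0.473, 0.288 and 0.249). With the replicate block, calls were 63 in endothelial-like, 12 in Gja5-positive and 121 in mesenchymal-like cells. WT library 1, with few cells, limits the splits most.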
